A study of Mus musculus with 12 samples.

Results

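Metallothioneins and zinc transport genes were followed across hepatocyte maturation in RNA sequencing libraries of mouse liver cells. The members are 10 genes given as a list of symbols, namely Mt1, Mt2, Mtf1, Slc30a1, Slc30a10, Slc39a4, Slc39a5, Slc39a8, Slc39a10 and Slc39a14. Each symbol matched 1 gene of the 53715 in the count table, and all 10 passed the filter on low counts. The cells came from mice of strain C57BL/6JOlaHsd and fall into 3 groups of 4 biological replicates. Hepatoblasts, the embryonic progenitors of hepatocytes and bile duct cells, were taken at E14.5 from pooled embryonic livers by magnetic sorting for the surface protein Dlk1 and were used without culture. Diff. hepatocytes were E14.5 Dlk1+ cells that had spent 4 days on fibronectin in a medium with serum, dexamethasone, Matrigel and a supplement of insulin, transferrin and selenium. Mature hepatocytes were obtained by collagenase perfusion from adult male mice aged 8 to 12 weeks and were also used without culture. Hepatoblasts and Diff. hepatocytes share embryonic origin and sorting and differ by the culture, where time and medium cannot be told apart. Mature hepatocytes differ from both in age and isolation and come from male mice, and from Diff. hepatocytes also in culture, and the shares of these in a difference cannot be told apart.

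Metallothioneins are small, cysteine-rich proteins that bind zinc and copper, and the liver of rodents before and after birth is known for its high content of them. The transcription factor Mtf1 senses zinc and binds metal response elements, short DNA motifs found near metallothionein genes and the exporter gene Slc30a1. Proteins of the Slc30a family carry zinc out of the cytosol and those of the Slc39a family carry it in, while Slc30a10, Slc39a8 and Slc39a14 are also known as manganese transporters of the liver. Glucocorticoids and inflammation are known to raise metallothionein transcripts as well.

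The values are counts of 75-base reads per gene. The hepatoblast libraries held 21523329, 25216977, 24688610 and 24472931 counts on genes in replicates 1 to 4. The Diff. hepatocyte libraries held 21411353, 22026087, 21974169 and 19581551 counts, and the mature hepatocyte libraries 20801286, 20043218, 22730818 and 23791477. Levels are given as CPM, counts scaled to a common library size by TMM, in the order of replicates 1 to 4, and errors are SD over the 4 libraries of a group. After a filter that asked for over 10 counts in at least 1 library, 17779 genes remained, and edgeR's quasi-likelihood test was run on them in 1 fit over the 12 libraries. A call needed a log2 fold change past 1 in either direction and p under 0.01 after Benjamini-Hochberg adjustment.

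The labels were checked against marker lists, each summed per library. For 6 hepatoblast markers, with Afp the most abundant in hepatoblasts and H19 in Diff. hepatocytes, hepatoblasts summed to 41842, 59766, 67400 and 70065 CPM. Diff. hepatocytes summed to 37829, 41168.5, 44146 and 42952 CPM. In mature hepatocytes the sum was 80.8, 74.8, 109 and 65.9 CPM, with Lin28b at 0 in replicates 1 to 3. The sum of 10 adult hepatocyte markers, led by Alb, lay between 32998 and 55805 CPM in hepatoblasts, between 54653 and 63374 CPM in Diff. hepatocytes and between 125622 and 172917 CPM in mature hepatocytes. Of the 6 hepatoblast markers, 5 were called lower in Diff. hepatocytes than in hepatoblasts, with a median log2 fold change of -1.73 over the list. Of all genes, 14.0% were called lower there, with a median of -0.013. Dlk1, the protein used for sorting, had group means of 3523, 94.2 and 4.19 CPM in the order hepatoblasts, Diff. and mature hepatocytes.

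Markers of other cells were present in each group. The sum of 10 erythroid genes, led by Hbb-bs, was 3067, 622, 512 and 377 CPM in hepatoblasts, and all 10 were detected there. In Diff. hepatocytes it was 29.7, 15.5, 7.15 and 7.49 CPM, with Kel at 0 in replicates 2 to 4. In mature hepatocytes it was 185, 159.5, 149.5 and 135 CPM, of which the heme synthesis gene Alas2 gave 177, 153, 144 and 130.4 CPM, while Hbb-bs stood at 1.37 CPM or less and Kel was at 0 in replicates 2 to 4. By group mean, the most abundant of 9 macrophage genes was Cd5l in hepatoblasts, Lyz2 in Diff. hepatocytes and Clec4f in mature hepatocytes. Their sum was 345, 81.1, 98.6 and 94.5 CPM in hepatoblasts, with Vsig4 at 0 in replicate 2. It was 151, 72.75, 24.2 and 38.2 CPM in Diff. hepatocytes and 229, 135, 255 and 133 CPM in mature hepatocytes, with all 9 detected. For 8 endothelial genes, all detected in every library, Stab2 had the highest group mean in hepatoblasts and mature hepatocytes. In Diff. hepatocytes it was Eng, at a mean of 22.5 CPM against 1.28 CPM of Stab2. Eng lay above Stab2 in Hepatoblasts replicates 3 and 4, and Kdr above Stab2 in Mature hepatocytes replicate 2. The sums were 145, 67.7, 51.5 and 43.4 CPM in hepatoblasts, then 28.7, 32.0, 29.4 and 31.9 CPM in Diff. hepatocytes, and 236, 131, 237 and 171 CPM in mature hepatocytes. Among 9 mesenchymal genes, all detected, Reln was the most abundant in hepatoblasts, at means of 864, 93.0 and 21.7 CPM in the 3 groups, and Col1a1 in Diff. hepatocytes, at 299.9 CPM in hepatoblasts and 694 CPM there. The 9 genes summed to between 1181 and 1978 CPM in hepatoblasts, to 2694, 1327, 1815 and 1153 CPM in Diff. hepatocytes and to between 71.9 and 102 CPM in mature hepatocytes. Of the bile duct markers, Krt19 had 1.58, 2.18, 1.75 and 1.49 CPM in hepatoblasts, then 88.9, 24.8, 39.5 and 35.9 CPM in Diff. hepatocytes and 9.33, 2.05, 2.28 and 2.11 CPM in mature hepatocytes. Krt7 had 2.03, 1.28, 1.65 and 1.29 CPM in hepatoblasts, then 90.2, 20.6, 32.4 and 24.5 CPM in Diff. hepatocytes and 1.30, 0.321, 0.350 and 0.372 CPM in mature hepatocytes. Of 6 bile duct genes tested, 3 were called higher in Diff. hepatocytes against hepatoblasts, beside 14.9% of all genes. Against mature hepatocytes 3 were also called higher, beside 20.2% of all genes. Krt19 and Krt7 were each time among them, and 3 were called in neither comparison. In mature hepatocytes against hepatoblasts 1 was called higher and 1 lower, beside 20.1% and 24.7% of all genes. Spp1, not called in the comparisons of Diff. hepatocytes, had group means of 4.12, 8.38 and 16.3 CPM in the order hepatoblasts, Diff. and mature hepatocytes. The part of these genes in the results on zinc genes was not tested. In bulk RNA, fewer cells of a type and less RNA per cell cannot be told apart.

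Hepatoblasts replicate 1 stood apart from its group. Its erythroid, macrophage and endothelial sums were the highest of the 4 hepatoblast libraries and its hepatoblast marker sum was the lowest. The chi-square per gene between replicate 1 and the other hepatoblast libraries was 59.7 to 97.4, against 8 to 19.5 among those other libraries. It was 6.43 to 43.0 among the Diff. libraries and 42.0 to 99.2 among the mature libraries, so that the latter were as far from each other.

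In Diff. hepatocytes against hepatoblasts, 5 of the 10 genes were called, beside 28.9% of all genes tested. Slc39a14 rose, with 14.9% of all genes called higher, and Mt1, Mt2, Slc39a5 and Slc39a8 fell, with 14.0% of all genes called lower. In mature hepatocytes against hepatoblasts, 7 were called, beside 44.8% of all genes. Slc30a1, Slc30a10 and Slc39a14 were the 3 higher ones, with 20.1% of all genes higher, and Mt1, Mt2, Slc39a5 and Slc39a10 the 4 lower ones, with 24.7% of all genes lower. In Diff. hepatocytes against mature hepatocytes, 7 were called, beside 35.8% of all genes. Mt1, Mt2, Slc39a5 and Slc39a10 were higher in Diff. hepatocytes, with 20.2% of all genes higher, and Slc30a1, Slc30a10 and Slc39a8 were lower, with 15.6% of all genes lower. Mtf1 and Slc39a4 were called in none of the 3 comparisons. Without Hepatoblasts replicate 1 the counts were again 5, 7 and 7, beside 5069, 7872 and 6532 of the 17532 genes then tested. Each group enters 2 of the 3 comparisons, so these counts share libraries.

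Taken over the 10 genes, the log2 fold changes had a median of -0.092, 0.26 and -0.037 in the 3 comparisons in that order, and over all genes tested a median of -0.013, -0.15 and 0.092. Without Hepatoblasts replicate 1 the medians of the 10 genes were 0.066, 0.38 and -0.025, so that the sign of the first turned on that library. The medians of all genes were then 0.021, -0.12 and 0.102, with the sign of the first turned as well. The scaling of the libraries bears on direction. With library totals in place of TMM the median of all genes moved to -0.34, -1.0003 and 0.62, and with totals that leave out the 50 most abundant genes it moved to -0.13, -0.82 and 0.65. Among all genes, 2648 were called higher and 2497 lower in Diff. hepatocytes against hepatoblasts, and 1985 and 3621 under library totals. For mature hepatocytes against hepatoblasts the split of 3580 higher and 4391 lower became 2007 and 7920 under library totals and 2276 and 7037 under totals without the 50 genes. For Diff. hepatocytes against mature hepatocytes the split of 3586 and 2776 became 5500 and 1776, and 5679 and 1742. Under library totals, the members called in mature hepatocytes against hepatoblasts were 0 higher and 5 lower, and without the 50 genes 1 higher and 4 lower.

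**Figure D1:**
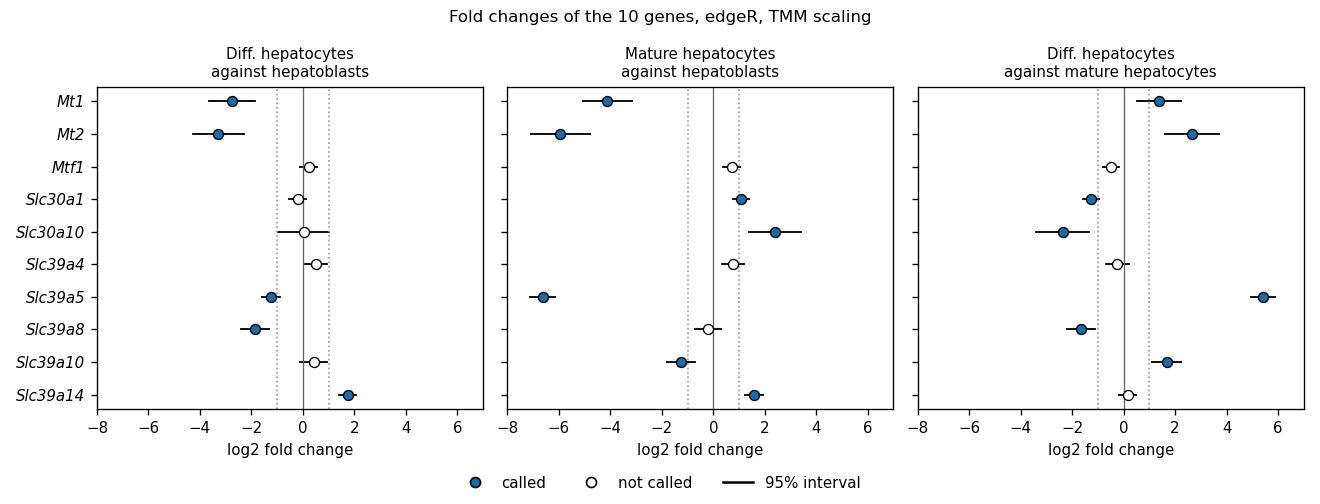
Log2 fold change of each of the 10 genes in the 3 comparisons from edgeR with TMM scaling, with 95% intervals as bars and dotted lines at the threshold of 1. Filled points are called genes, 5, 7 and 7 in the 3 panels, and the estimates run from -6.63 to 5.40, both of them Slc39a5.

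Mt1 (ENSMUSG00000031765, chromosome 8 from 94179082 to 94180327 of GRCm38) encodes a metallothionein of the liver. It measured 1215, 1534, 1624 and 1648 CPM in hepatoblasts, then 296, 172, 232 and 202 CPM in Diff. hepatocytes and 137, 136, 38.8 and 33.9 CPM in mature hepatocytes. The 3 groups did not overlap, and in mature hepatocytes replicates 1 and 2 lay above replicates 3 and 4. Mt1 fell 6.68-fold in Diff. hepatocytes against hepatoblasts, a log2 fold change of -2.74 (SE 0.41, by edgeR adjusted p = 7.74e-05), with 4 of 4 libraries below every hepatoblast library. It fell 17.4-fold in mature hepatocytes against hepatoblasts (-4.12 with SE 0.44 as log2, adjusted p = 1.72e-06 by edgeR). Of all counts on genes, Mt1 took 0.175%, 0.204%, 0.203% and 0.203% in hepatoblasts, where it ranked between 41st and 43rd of all genes by counts. In Diff. hepatocytes it ranked between 349th and 735th, and in mature hepatocytes it ranked 1351st, 1298th, 4214th and 4748th.

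Between Diff. hepatocytes and mature hepatocytes, Mt1 was 2.61-fold higher in Diff. hepatocytes (1.38 with SE 0.40 as log2, adjusted p = 0.00774 by edgeR). This call is close to its threshold. It was lost in the edgeR fit of the 8 libraries of these groups alone (log2 fold change 1.40, adjusted p = 0.0176), with glmTreat (adjusted p = 0.177) and with the threshold inside DESeq2's test (adjusted p = 0.912). Leaving out any of 8 libraries also ended it. The edgeR adjusted p was 0.0112, 0.0111 and 0.0106 without Hepatoblasts replicates 2, 3 and 4, 0.0229, 0.0165 and 0.0130 without Diff. hepatocytes replicates 1, 3 and 4, and 0.0200 and 0.0158 without Mature hepatocytes replicates 3 and 4. The log2 fold change ranged from 1.12 to 1.69 and the edgeR adjusted p from 0.00362 to 0.0229 over the fits that left out 1 library. Diff. hepatocytes replicate 1, the highest of its group in Mt1, also had the highest erythroid, macrophage and mesenchymal marker sums and the highest Krt19 and Krt7 there. Its sum of 13 genes of the acute phase of inflammation was also the highest there, at 38995 CPM against 33868 to 37446 CPM. The part of all these genes in the result was not tested.

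Mt2 (ENSMUSG00000031762, chromosome 8 from 94172664 to 94173568) is the neighbour of Mt1 and encodes a protein of the same kind. It measured 239, 299.7, 300.2 and 267 CPM in hepatoblasts, then 45.3, 20.1, 25.1 and 23.0 CPM in Diff. hepatocytes and 5.14, 10.1, 1.93 and 0.993 CPM in mature hepatocytes. No library of a group reached into the range of another, and replicate 1 was again the highest of the Diff. hepatocytes. Mt2 fell 9.73-fold in Diff. hepatocytes (-3.28 with SE 0.45 as log2, adjusted p = 3.51e-05 by edgeR) and 61.2-fold in mature hepatocytes (-5.94 with SE 0.53 as log2, adjusted p = 2.93e-07 by edgeR), both against hepatoblasts. It was 6.29-fold higher in Diff. than in mature hepatocytes (2.65 with SE 0.48 as log2, adjusted p = 0.000306 by edgeR), and the threshold inside DESeq2's test ended that call. Both comparisons with mature hepatocytes moved with Mature hepatocytes replicate 2, the highest of its group. Without it the log2 fold change was -6.72 against hepatoblasts, in a range of -6.72 to -5.61 over the fits that left out 1 library. Between Diff. and mature hepatocytes it was 3.42 without that library, in a range of 2.31 to 3.42. That library also had 789 CPM of Saa1 and 373 CPM of Saa2, genes of the acute phase of inflammation, against 23.3 to 82.3 CPM and 9.19 to 24.3 CPM in the other mature libraries. The sum of 13 acute phase genes, all detected, was 24336, 23395, 24110 and 19549 CPM in mature hepatocytes. Fgb led by group mean, while Hp led in replicate 2 and Fga in replicate 3. The part of acute phase genes in the result was not tested.

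Most of Mt2 lies where reads could not be counted. Of 511 transcript bases, 355 or 69.5% lie under exons of the antisense gene Gm45774, and the table behaves like a count that ignores strand and drops reads shared by overlapping genes. Of 37 protein-coding genes wholly under exons of the other strand, 2 (5.41%) had any count, against 77.4% of 16714 such genes with no such overlap. That leaves 156 bases at the end of Mt2, chr8:94173413-94173568, and 82 of its 437 possible 75-base read positions, while all 475 positions of Mt1 are free. Gm45774 itself had 93, 116, 123 and 160 counts in hepatoblasts, 20, 22, 15 and 15 in Diff. hepatocytes and 103, 178, 24 and 7 in mature hepatocytes. The mature replicates with more Gm45774 counts, 1 and 2, were also those with more Mt1 and Mt2. The library preparation kept strand, according to the methods of the paper, so this is a limit of the count table. In that table, reads of Mt2 and Gm45774 cannot be told apart where their exons overlap, and the CPM of Mt2 rest on the last part of the gene alone.

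**Figure D2:**
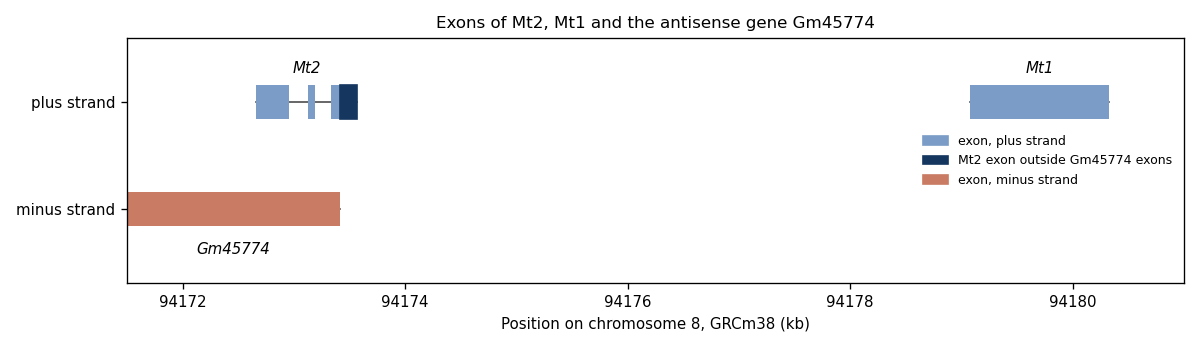
Map of the Mt2 and Mt1 genes on chromosome 8, with exons of the plus strand above and of the minus strand below, by position in kb of GRCm38. The dark part of the last Mt2 exon, 156 bases, is all of Mt2 that lies outside the exons of Gm45774, which extend past the left edge of the map.

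The ratio of Mt1 to Mt2 counts within a library does not depend on scaling. On the log2 scale it was 2.35, 2.36, 2.44 and 2.62 in hepatoblasts, 2.71, 3.10, 3.21 and 3.13 in Diff. hepatocytes and 4.73, 3.75, 4.33 and 5.09 in mature hepatocytes. The groups did not overlap, with the ratio lowest in hepatoblasts and most spread in mature hepatocytes, where Mt2 rested on 75, 158, 33 and 16 counts. Group means were 2.44 ± 0.13, 3.04 ± 0.22 and 4.48 ± 0.58 (SD, n = 4). The differences were 0.60 for Diff. hepatocytes against hepatoblasts, 2.04 for mature hepatocytes against hepatoblasts and -1.44 for Diff. hepatocytes against mature hepatocytes. For each of them a two-sided exact permutation test gave p = 0.0286, also after adjustment over the 3 comparisons, which is the smallest p that the 70 assignments of 4 and 4 libraries allow. Per countable position the mean log2 ratio was -0.094, 0.50 and 1.94, a level that rests on the annotated transcript ends and on an even spread of reads, neither of which was checked with reads. The metallothionein pair thus fell together against hepatoblasts, with Mt2 counts falling further than Mt1 counts in both comparisons.

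**Figure D3:**
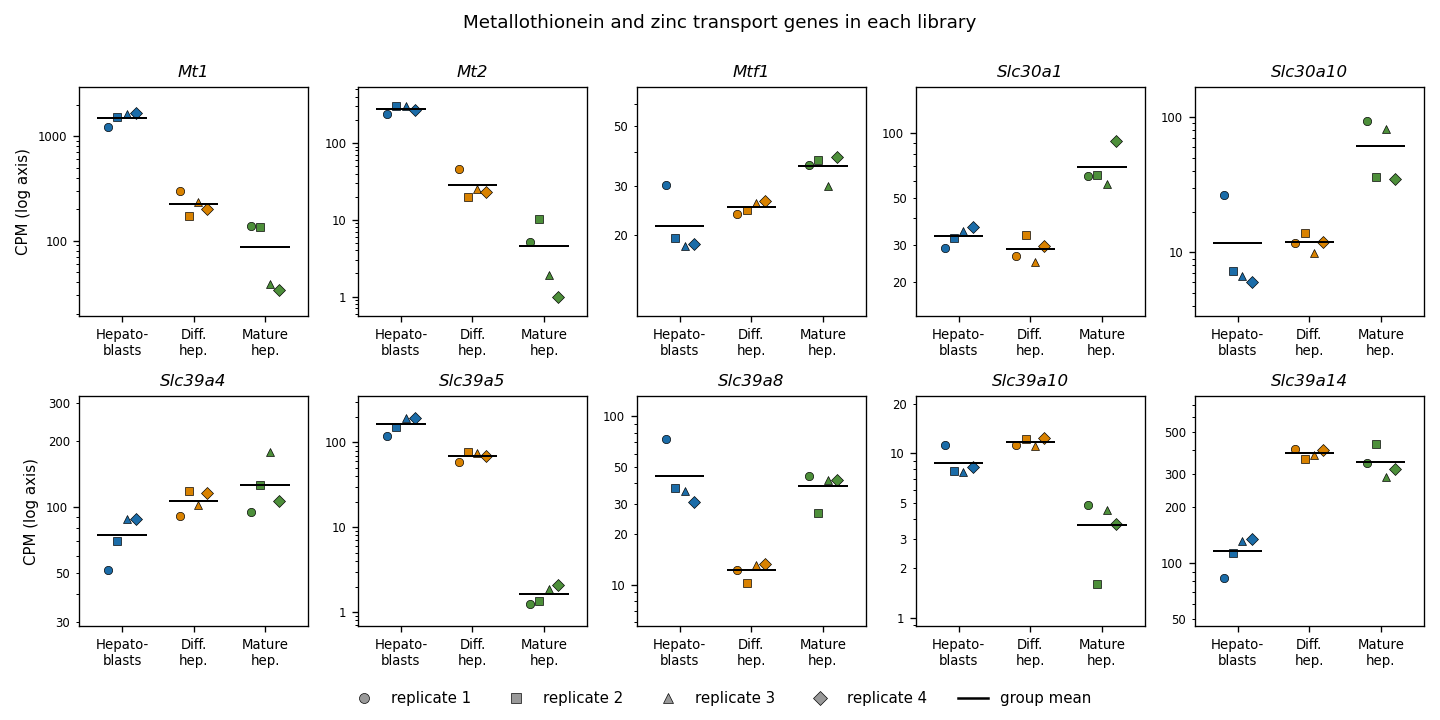
CPM of the 10 genes in each of the 12 libraries on log axes, with a symbol for each replicate and a line at each group mean. Hepatoblasts hold the highest Mt1, Mt2 and Slc39a5 values, mature hepatocytes the highest Slc30a1 and Slc30a10 values, and Hepatoblasts replicate 1 lies above its group at 26.4 CPM of Slc30a10 and 72.9 CPM of Slc39a8.

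Mtf1 (ENSMUSG00000028890, chromosome 4 from 124802104 to 124849800), the zinc-sensing transcription factor, measured 30.3, 19.5, 18.1 and 18.5 CPM in hepatoblasts, then 23.8, 24.6, 26.2 and 26.5 CPM in Diff. hepatocytes and 36.1, 37.5, 30.2 and 38.6 CPM in mature hepatocytes. Hepatoblasts replicate 1 lay at the lower edge of the mature libraries and above all Diff. libraries, while the other hepatoblast libraries lay below both groups. No comparison passed the fold threshold. The log2 fold change was 0.23 in Diff. hepatocytes (SE 0.15, by edgeR adjusted p = 0.209) and 0.72 in mature hepatocytes (SE 0.15, by edgeR adjusted p = 0.000754), both against hepatoblasts. Without Hepatoblasts replicate 1 these were 0.45 (edgeR adjusted p = 0.000972) and 0.92 (edgeR adjusted p = 1.08e-06). Between Diff. hepatocytes and mature hepatocytes it was -0.49 (SE 0.15, by edgeR adjusted p = 0.0115). Under library totals the signs turned, to -0.12, -0.15 and 0.037 in the 3 comparisons, beside medians of all genes of -0.34, -1.0003 and 0.62. Mtf1 transcript and the metallothionein transcripts thus had opposite orders of group means under TMM, with Mtf1 at 21.6, 25.3 and 35.6 CPM and Mt1 at 1505, 225 and 86.5 CPM.

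Slc30a1 (ENSMUSG00000037434, chromosome 1 from 191906767 to 191913247) encodes the zinc exporter of the plasma membrane. It measured 28.9, 32.2, 34.8 and 36.3 CPM in hepatoblasts, then 26.5, 33.5, 24.9 and 29.5 CPM in Diff. hepatocytes and 63.4, 63.7, 57.7 and 92.1 CPM in mature hepatocytes. The first pair of groups overlapped, and all mature libraries lay above them, with replicate 4 the highest. Slc30a1 rose 2.095-fold in mature hepatocytes against hepatoblasts (1.07 with SE 0.14 as log2, adjusted p = 1.74e-05 by edgeR) and was 2.42-fold lower in Diff. than in mature hepatocytes (-1.28 with SE 0.15 as log2, adjusted p = 5.05e-06 by edgeR). Against hepatoblasts it differed by -0.21 in Diff. hepatocytes (95% interval -0.52 to 0.10, edgeR adjusted p = 0.231).

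Both Slc30a1 calls turn on the threshold and the scaling. Without Mature hepatocytes replicate 4 the value against hepatoblasts was 0.89, under the threshold, in a range of 0.89 to 1.13 over the fits without 1 library. Library totals gave 0.21 and -0.74 for the comparisons with mature hepatocytes, totals without the 50 most abundant genes 0.39 and -0.71, and neither call held with glmTreat or the threshold inside DESeq2's test.

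Slc30a10 (ENSMUSG00000026614, chromosome 1 from 185454848 to 185468762) encodes the exporter best known for clearing manganese from the liver into bile. It measured 26.4, 7.31, 6.74 and 6.06 CPM in hepatoblasts, then 11.6, 14.0, 9.86 and 11.8 CPM in Diff. hepatocytes and 92.8, 36.3, 81.1 and 34.8 CPM in mature hepatocytes. Hepatoblasts replicate 1 lay above every Diff. library and its 3 fellow replicates below them, and mature replicates 1 and 3 lay far above replicates 2 and 4. Slc30a10 rose 5.26-fold in mature hepatocytes against hepatoblasts (2.40 with SE 0.47 as log2, adjusted p = 0.000449 by edgeR), and without Hepatoblasts replicate 1 the log2 fold change was 3.18 (edgeR adjusted p = 1.93e-06). Library totals ended that call (log2 fold change 1.49, beside a median of -1.0003 for all genes). It was 5.17-fold lower in Diff. than in mature hepatocytes (-2.37 with SE 0.47 as log2, adjusted p = 0.000634 by edgeR), a call lost with the threshold inside DESeq2's test.

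For Diff. hepatocytes against hepatoblasts the log2 fold change of Slc30a10 was 0.025 (95% interval -0.97 to 1.02, edgeR adjusted p = 0.968). It was 0.83 without Hepatoblasts replicate 1 (edgeR adjusted p = 0.0408), and -0.16, -0.18 and -0.20 without Hepatoblasts replicates 2, 3 and 4, so the sign of this value turned on single libraries. Mature replicates 1 and 3, the high pair in Slc30a10, also had the high macrophage and endothelial sums of their group, 229 and 255 CPM and 236 and 237 CPM. Hepatoblasts replicate 1 was high in the same lists and in erythroid genes, and the part of these cells in the result was not tested.

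Among the importers, Slc39a5 (ENSMUSG00000039878, chromosome 10 from 128395931 to 128401229), a zinc importer of the basolateral membrane, measured 118, 152, 193 and 194 CPM in hepatoblasts, then 58.7, 76.2, 75.7 and 69.1 CPM in Diff. hepatocytes and 1.23, 1.35, 1.87 and 2.11 CPM in mature hepatocytes. The 3 groups were separate, with no mature library above 2.11 CPM and the lowest hepatoblast library above the highest Diff. library. Slc39a5 fell 99.2-fold in mature hepatocytes against hepatoblasts (-6.63 with SE 0.22 as log2, adjusted p = 2.6e-11 by edgeR) and was 42.2-fold higher in Diff. than in mature hepatocytes (5.40 with SE 0.21 as log2, adjusted p = 2.45e-10 by edgeR). No alternative ended these calls. It fell 2.35-fold in Diff. hepatocytes against hepatoblasts (-1.23 with SE 0.16 as log2, adjusted p = 2.24e-05 by edgeR), a call lost with glmTreat and with the threshold inside DESeq2's test.

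Slc39a14 (ENSMUSG00000022094, chromosome 14 from 70303469 to 70351425) encodes the importer known for the uptake of zinc in inflammation and of manganese and iron in the liver. It measured 82.9, 114, 130.4 and 135 CPM in hepatoblasts, then 407, 358, 378 and 402 CPM in Diff. hepatocytes and 341, 431, 288 and 318 CPM in mature hepatocytes. All Diff. and mature libraries lay above all hepatoblast libraries, and these later groups overlapped. Slc39a14 rose 3.35-fold in Diff. hepatocytes (1.74 with SE 0.16 as log2, adjusted p = 7.38e-07 by edgeR) and 2.98-fold in mature hepatocytes (1.58 with SE 0.16 as log2, adjusted p = 8.47e-07 by edgeR), both against hepatoblasts. The latter call was lost under library totals (log2 fold change 0.75) and totals without the 50 most abundant genes (0.91). Between Diff. hepatocytes and mature hepatocytes the log2 fold change was 0.17 (95% interval -0.16 to 0.50, edgeR adjusted p = 0.356).

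Slc39a8 (ENSMUSG00000053897, chromosome 3 from 135825279 to 135888572) encodes an importer of zinc and manganese that is close kin to Slc39a14. It measured 72.9, 37.7, 36.2 and 31.0 CPM in hepatoblasts, then 12.1, 10.2, 13.0 and 13.3 CPM in Diff. hepatocytes and 44.4, 26.8, 42.1 and 41.9 CPM in mature hepatocytes. The Diff. libraries lay below all others, hepatoblasts and mature hepatocytes overlapped, and Hepatoblasts replicate 1 was the highest of the 12. Slc39a8 fell 3.65-fold in Diff. hepatocytes against hepatoblasts (-1.87 with SE 0.25 as log2, adjusted p = 2.67e-05 by edgeR), a value of -1.51 without Hepatoblasts replicate 1 (edgeR adjusted p = 2.89e-06). It was 3.18-fold lower in Diff. than in mature hepatocytes (-1.67 with SE 0.25 as log2, adjusted p = 5.78e-05 by edgeR), a call lost with the threshold inside DESeq2's test. In mature hepatocytes against hepatoblasts it differed by -0.20 (95% interval -0.71 to 0.32, edgeR adjusted p = 0.471), by 0.14 without Hepatoblasts replicate 1, and by -1.09 under library totals, where it was called beside a median of -1.0003. The macrophage, endothelial and erythroid sums of Hepatoblasts replicate 1 were also high, and their part in its Slc39a8 value was not tested.

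Slc39a10 (ENSMUSG00000025986, chromosome 1 from 46807544 to 46892852), a zinc importer of the plasma membrane, was low throughout. It measured 11.2, 7.76, 7.74 and 8.22 CPM in hepatoblasts, then 11.3, 12.2, 11.1 and 12.3 CPM in Diff. hepatocytes and 4.87, 1.604, 4.49 and 3.72 CPM in mature hepatocytes. Mature libraries were the lowest, with replicate 2 below the rest, and Hepatoblasts replicate 1 reached into the Diff. range. Slc39a10 fell 2.38-fold in mature hepatocytes against hepatoblasts (-1.25 with SE 0.26 as log2, adjusted p = 0.000613 by edgeR), a call lost with glmTreat and with the threshold inside DESeq2's test. It was 3.19-fold higher in Diff. than in mature hepatocytes (1.67 with SE 0.26 as log2, adjusted p = 7.11e-05 by edgeR), lost only with the threshold inside DESeq2's test. Against hepatoblasts, Diff. hepatocytes differed by 0.43 (95% interval -0.094 to 0.95, edgeR adjusted p = 0.144). That value was 0.58 without Hepatoblasts replicate 1 (edgeR adjusted p = 0.0450), and that in mature hepatocytes against hepatoblasts was then -1.11 (edgeR adjusted p = 0.00112).

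Slc39a4 (ENSMUSG00000063354, chromosome 15 from 76612383 to 76617384), the importer best known for zinc uptake in the gut, measured 51.6, 69.7, 88.0 and 88.2 CPM in hepatoblasts, then 91.3, 119, 102 and 116 CPM in Diff. hepatocytes and 95.4, 125, 178 and 106 CPM in mature hepatocytes. Hepatoblast libraries lay below all others, if narrowly, and the later groups overlapped. The log2 fold change was 0.52 in Diff. hepatocytes (95% interval 0.089 to 0.96, edgeR adjusted p = 0.0382) and 0.76 in mature hepatocytes (95% interval 0.33 to 1.199, edgeR adjusted p = 0.0039) against hepatoblasts, neither called. Between Diff. hepatocytes and mature hepatocytes it was -0.24 (95% interval -0.67 to 0.19, edgeR adjusted p = 0.306). Under library totals the value in mature hepatocytes against hepatoblasts turned to -0.059, and that between Diff. hepatocytes and mature hepatocytes to 0.27.

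Levels of different genes were compared per kilobase of countable read positions, in CPM. Counts of a whole gene were divided by the positions of 1 annotated transcript, so the order of genes rests on that choice. For all members but Slc30a1 and Slc30a10, the exons of all transcripts cover more bases than that transcript. Slc39a14 had 10550 against 4926 bases, Slc39a8 7664 against 3533 and Mt1 1246 against 549. In hepatoblasts the order was Mt2 at 3373 ± 359, Mt1 at 3169 ± 421, Slc39a5 at 84.2 ± 18.6, Slc39a4 at 27.8 ± 6.53 and Slc39a14 at 23.8 ± 4.85 (SD, n = 4). Within libraries, Mt2 lay above Mt1 in replicates 1 to 3 and below it in replicate 4, and Slc39a4 lay above Slc39a14 in all 4. In Diff. hepatocytes it was Mt1 at 475 ± 112, Mt2 at 346 ± 139.8, Slc39a14 at 79.6 ± 4.71, Slc39a4 at 39.9 ± 4.74 and Slc39a5 at 35.8 ± 4.19. Mt1 lay above Mt2 in all 4 of these libraries, and Slc39a4 above Slc39a5 in all but replicate 3. In mature hepatocytes it was Mt1 at 182 ± 122, Slc39a14 at 71.0 ± 12.7, Mt2 at 55.5 ± 50.3, Slc39a4 at 47.2 ± 13.6 and Slc30a1 at 15.0 ± 3.34. There Mt1 lay above Mt2 and Slc39a14 in all 4 libraries, Slc39a14 above Mt2 in all but replicate 2 and above Slc39a4 in all but replicate 3, and Mt2 above Slc39a4 in replicates 1 and 2 alone. The means of the remaining members lay under these, down to 1.61 ± 0.308 for Slc39a10 in hepatoblasts, 2.16 ± 0.111 for Slc39a10 in Diff. hepatocytes and 0.677 ± 0.269 for Slc39a10 in mature hepatocytes. In single libraries, Slc39a8 lay above Slc39a4 and Slc39a14 in Hepatoblasts replicate 1, and Slc30a10 above Slc30a1 in Mature hepatocytes replicates 1 and 3. Slc39a10 was not the lowest member in every library. Slc30a10 lay below it in Hepatoblasts replicates 2 to 4 and Diff. hepatocytes replicate 3, and Slc39a5 in Mature hepatocytes replicate 1. Slc39a5 stood at 0.841 ± 0.214 in mature hepatocytes. Mt2 figures rest on the 82 positions left to count.

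The other 19 metallothionein and zinc transporter genes of the mouse were taken as whole families. Of these, 16 were tested, and Mt3, Slc30a8 and Slc39a12 were not, with highest counts of 6, 1 and 2 in any library. Called genes numbered 4 in Diff. hepatocytes against hepatoblasts (2 higher, 2 lower), 2 in mature hepatocytes against hepatoblasts (0 higher, 2 lower) and 3 in Diff. hepatocytes against mature hepatocytes (2 higher, 1 lower), beside 28.9%, 44.8% and 35.8% of all genes, and without Hepatoblasts replicate 1 again 4, 2 and 3. Their median log2 fold changes were 0.032, 0.15 and 0.077, beside -0.013, -0.15 and 0.092 for all genes. They were -0.042, 0.043 and 0.090 without Hepatoblasts replicate 1, beside 0.021, -0.12 and 0.102 for all genes. The sign of the first turned in both. Under library totals the medians of these families were -0.28, -0.69 and 0.60, beside -0.34, -1.0003 and 0.62 for all genes. In mature hepatocytes against hepatoblasts, 0 were then called higher and 5 lower, beside 2007 and 7920 of all 17779 genes. In Diff. hepatocytes against mature hepatocytes, 5 were called higher and 0 lower, beside 5500 and 1776 of all genes. Of the 16 genes, 10 had positive values in mature hepatocytes against hepatoblasts under TMM and 0 under library totals. The median of all genes moved there from -0.15 to -1.0003.

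Among these genes, Slc39a6, a plasma membrane importer close to Slc39a10, had 9.42, 10.7, 8.29 and 7.29 CPM in hepatoblasts, then 15.7, 10.8, 13.1 and 13.2 CPM in Diff. hepatocytes and 4.59, 3.66, 3.62 and 2.73 CPM in mature hepatocytes. All mature libraries lay below the rest. Slc39a6 fell in mature hepatocytes against hepatoblasts (-1.29 with SE 0.18 as log2, adjusted p = 2.36e-05 by edgeR) and was higher in Diff. than in mature hepatocytes (1.86 with SE 0.18 as log2, adjusted p = 1.18e-06 by edgeR). The former call was lost with glmTreat and with the threshold inside DESeq2's test.

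The other called genes of these families stayed under 2 CPM. Slc30a2, a vesicle zinc transporter known from the mammary gland, had 0.0645, 0.0896, 0.0324 and 0.0331 CPM in hepatoblasts, then 1.34, 1.03, 1.82 and 0.986 CPM in Diff. hepatocytes and 0, 0.193, 0.0584 and 0 CPM in mature hepatocytes. Each Diff. library lay above all others, with a log2 fold change of 4.42 against hepatoblasts (SE 0.53, by edgeR adjusted p = 9.51e-06) and 4.25 against mature hepatocytes (SE 0.60, by edgeR adjusted p = 3.14e-05). The latter value rests on 4 counts over the mature libraries. It was 5.64 without Mature hepatocytes replicate 2, in a range of 3.86 to 5.64 over the fits without 1 library. Slc39a2, an importer of the skin, rose from between 0.149 and 0.597 CPM in hepatoblasts to between 0.888 and 1.08 CPM in Diff. hepatocytes (1.77 with SE 0.39 as log2, adjusted p = 0.00155 by edgeR), a value of 2.36 without Hepatoblasts replicate 4. Slc30a3, known from synaptic vesicles, measured between 0.259 and 0.542 CPM in Diff. hepatocytes, lower than in hepatoblasts (-1.91 with SE 0.39 as log2, adjusted p = 0.000838 by edgeR) and than in mature hepatocytes (-1.59 with SE 0.40 as log2, adjusted p = 0.00361 by edgeR). The latter was lost under library totals (-1.05), under totals without the 50 most abundant genes (-1.03), and without Diff. hepatocytes replicate 1 (-1.45) or 3 (-1.51) or Mature hepatocytes replicate 4 (-1.34). With glmTreat and with the threshold inside DESeq2's test, neither Slc30a3 call nor that of Slc39a2 held.

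Mt4, a metallothionein of stratified epithelia, had 0.322, 0.597, 0.518 and 0.729 CPM in hepatoblasts, and Diff. hepatocytes had 0.0865, 0.0430, 0.133 and 0.0493 CPM (-2.71 with SE 0.48 as log2, adjusted p = 0.000679 by edgeR). That call was lost with the threshold inside DESeq2's test. Mt4 was at 0 in all mature libraries. Against a floor of 3 counts in each of those libraries, a mean of 0.190 CPM, its hepatoblast mean of 0.542 CPM makes it at least 2.85-fold lower in mature hepatocytes.

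Abundant but uncalled genes of these families included Slc39a7 and Slc39a1. Slc39a7, an importer from the endoplasmic reticulum, stood at 72.2 ± 8.86, 77.4 ± 9.12 and 70.9 ± 10.8 CPM per kilobase of countable positions in the 3 groups. Of its transcript, 86.0% lies under exons of the gene Gm20427 on the same strand, which left 211 of 2246 positions to count. Slc39a1 stood at 30.2 ± 4.34, 30.7 ± 1.31 and 44.4 ± 2.03, and shares 17.95% of its positions with the copy Slc39a1-ps.

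Because Mt1, Mt2 and Slc30a1 are known targets of Mtf1 and were each called in these cells, their promoters are shown. Both calls of Slc30a1 turn on the threshold and the scaling. Sequences come from RefSeq windows on GRCm38.p6, from 250 bases before to 50 after a gene's start, and 8 of the 10 members matched with 11 windows. The core of the metal response element was searched as TGCACNC and as TGCGCNC on both strands. Of 32851 windows of 300 bases, 25.7% held at least 1 match. Mt2 had 4 matches, as many as 0.517% of windows, Mt1 and Slc30a10 had 3 each (1.97% of windows) and Slc30a1 had 2 (7.11%). Slc39a5 had 1 match in 1 of its windows, as did Slc39a8, and Mtf1 and Slc39a10 had 0. Only the parts before the start given by RefSeq or GENCODE, whichever comes first, are printed, chr8:94178839-94179081 for Mt1, chr8:94172368-94172617 for Mt2 and chr1:191906531-191906766 for Slc30a1, all on the plus strand. They hold 1, 3 and 1 of the matches, in capitals, which read as the reverse complement of the motif in GTGTGCA of Mt2 and GAGTGCA of Slc30a1.
Mt1: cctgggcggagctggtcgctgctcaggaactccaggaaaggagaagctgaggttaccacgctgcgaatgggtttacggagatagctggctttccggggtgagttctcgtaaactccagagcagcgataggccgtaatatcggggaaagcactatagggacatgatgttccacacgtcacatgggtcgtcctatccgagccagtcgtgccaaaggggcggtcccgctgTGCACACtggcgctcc
Mt2: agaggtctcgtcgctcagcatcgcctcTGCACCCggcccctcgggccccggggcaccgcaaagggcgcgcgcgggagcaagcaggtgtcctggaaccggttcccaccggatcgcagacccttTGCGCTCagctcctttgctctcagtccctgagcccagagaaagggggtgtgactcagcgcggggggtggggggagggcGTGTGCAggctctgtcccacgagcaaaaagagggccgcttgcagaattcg
Slc30a1: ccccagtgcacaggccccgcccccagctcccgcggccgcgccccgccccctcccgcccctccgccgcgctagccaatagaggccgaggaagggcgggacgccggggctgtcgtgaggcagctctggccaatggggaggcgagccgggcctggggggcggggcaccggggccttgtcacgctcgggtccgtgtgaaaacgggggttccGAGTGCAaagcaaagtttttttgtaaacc
The remaining matches of Mt2 and Slc30a1 lie further on in their windows. The other 2 matches of Mt1 lie in its annotated first exon, at chr8:94179091-94179115, in this stretch of 25 bases.
Mt1 first exon: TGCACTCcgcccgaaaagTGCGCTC
A match describes letters in a window and is no measure of binding. The starts are those of the annotation and were not checked with reads. Whether a match, such as those in the annotated first exon of Mt1, lies before the start used in these cells is therefore not known.

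Other lists that touch on these genes were counted in the same fit. Of 10 copper handling genes, 3 were called in Diff. hepatocytes against hepatoblasts (2 higher, 1 lower, median 0.17), 6 in mature hepatocytes against hepatoblasts (4 higher, 2 lower, median 0.37) and 6 in Diff. hepatocytes against mature hepatocytes (3 higher, 3 lower, median -0.44), beside 28.9%, 44.8% and 35.8% of all genes. The medians were 0.052, 0.26 and -0.42 without Hepatoblasts replicate 1. Cp, the copper-carrying plasma protein ceruloplasmin, measured 36.1, 36.3, 46.2 and 61.6 CPM in hepatoblasts, then 3722, 3882, 3295 and 3396 CPM in Diff. hepatocytes and 1515, 1239, 1584 and 1379 CPM in mature hepatocytes. Both later groups lay above all hepatoblast libraries. Its log2 fold change against hepatoblasts was 6.31 in Diff. hepatocytes (SE 0.20, by edgeR adjusted p = 9.22e-11) and 4.99 in mature hepatocytes (SE 0.19, by edgeR adjusted p = 9.41e-11).

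Of 10 glucocorticoid response genes, 8 were called in Diff. hepatocytes against hepatoblasts (7 higher, 1 lower, median 1.595), 7 in mature hepatocytes against hepatoblasts (7 higher, 0 lower, median 1.87) and 7 in Diff. hepatocytes against mature hepatocytes (3 higher, 4 lower, median -0.78), beside the same shares of all genes, 28.9%, 44.8% and 35.8%. Without Hepatoblasts replicate 1 these were 7, 7 and 7. Fkbp5, a glucocorticoid-induced chaperone partner, measured 67.7, 87.1, 94.3 and 98.2 CPM in hepatoblasts, then 279, 232, 284 and 284 CPM in Diff. hepatocytes and 50.6, 78.7, 56.0 and 39.4 CPM in mature hepatocytes. It was higher in each Diff. library than in any other. Its log2 fold change was 1.64 against hepatoblasts (SE 0.18, by edgeR adjusted p = 5.08e-06) and 2.26 against mature hepatocytes (SE 0.19, by edgeR adjusted p = 2.19e-07). Tat and Errfi1 had their highest group means in mature hepatocytes. In the order hepatoblasts, Diff. and mature hepatocytes, Tat had 2.33, 725 and 2412 CPM and Errfi1 187, 550.0 and 1805 CPM. Dusp1 had its lowest group mean in Diff. hepatocytes, at 63.5, 29.3 and 278 CPM in that order. Of 13 acute phase genes, 10 were called in Diff. hepatocytes against hepatoblasts (9 higher, 1 lower, median 2.59), 11 in mature hepatocytes against hepatoblasts (9 higher, 2 lower, median 1.65) and 8 in Diff. hepatocytes against mature hepatocytes (2 higher, 6 lower, median 0.24), again beside 28.9%, 44.8% and 35.8%. Hp, the hemoglobin-binding plasma protein haptoglobin, measured 56.7, 43.7, 61.2 and 61.2 CPM in hepatoblasts, then 8604, 8545, 8780.1 and 7577 CPM in Diff. hepatocytes and 3766, 5954, 4145 and 3363 CPM in mature hepatocytes. Hp rose by 7.23 in Diff. hepatocytes and by 6.27 in mature hepatocytes on the log2 scale, both against hepatoblasts. Without Hepatoblasts replicate 1 the acute phase genes called were 10, 11 and 9.

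For the members, the 3 genes with the most similar log2 CPM over the 12 libraries were found among 8696 genes with a mean of at least 10 CPM, as a description. The 12 libraries fall into 3 groups, which sets most of each r. Slc39a5 lay nearest to Igf2 (r = 0.998), Igf2os (0.998) and Igf2bp1 (0.997), the fetal growth factor, its opposite-strand transcript and an RNA-binding protein named for it. Mt1 lay nearest to Mt2 (0.988), Bub1b (0.978) and Exoc3l4 (0.977), and Mt2 to Mt1 (0.988), Exoc3l4 (0.987) and Eps15l1 (0.987). The nearest genes of Slc39a14 were Hpx (0.986), Steap4 (0.984) and Slc35e3 (0.984), of which Hpx encodes the heme-binding plasma protein hemopexin and Steap4 a metal reductase. Mtf1 was nearest to Ell2 (0.987), Svip (0.974) and Foxo3 (0.971). Slc30a10 was nearest to Atxn7l1 (0.967), Ranbp10 (0.953) and Otud5 (0.950). Slc39a8 was nearest to Zfp36l2 (0.983), Phf2 (0.974) and Xpo7 (0.970), and Slc39a10 to Fyn (0.960), Usp34 (0.956) and Nin (0.953). The lowest of these values were those of Slc39a4, with Atp8b1 at 0.910, Cpb2 at 0.896 and Insig1 at 0.885.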

How the data were processed

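RNA of 12 libraries, 4 of each group, was analysed. Per the submitters' processing notes, the authors checked reads with FastQC 0.11.2, mapped and counted them with STAR 2.5.2b, and used Picard 2.10.2 and DESeq2 1.22.2. The deposited table holds counts that the authors did not normalize, with the count as its unit, on Ensembl genes of GRCm38. Symbols and exons came from GENCODE M21 (53620 of 53715 identifiers found), and promoters from RefSeq.

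Counts were scaled by TMM and tested in edgeR 4.0.16 (R 4.3.3, limma 3.58.1), with the group as the only term. Filter and thresholds were taken from the methods of the paper, whose test was DESeq2. Here the fold threshold was set on the estimate, and the paper does not state whether its own lay inside the test. For log2 values, 2 was the prior count. The test was also run on simulated data, and its outcome there is not given here. Alternatives were DESeq2 1.42.0, glmTreat, other scalings, filters and thresholds, 8-library fits, a replicate block and fits without each library. Tables and figures used Python 3.11.15, pandas 2.3.3, NumPy 2.4.6, SciPy 1.17.1 and matplotlib 3.10.9.

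All members, the other metallothionein and zinc transporter genes, the 3 genes most like each member and, from the context and marker lists, up to 4 most abundant genes may be named; Gm45774, Gm20427, Slc39a1-ps, Saa1, Saa2 and marker genes at 0 were named after their values were seen. Members and lists were chosen with earlier results of these data known. Read overlap was worked out from exon positions and 75-base sequences. A library at 0 allows up to 3 counts; reads carry no molecular identifiers, so floors cover counting error only. Imaging was not analysed here. The genes most like Slc30a1 and some marker values are not reported here.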

Additional observations from a re-analysis of the deposited data

Results flagged for a closer look

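In 111 groups of 4 libraries (members, other zinc genes and summed lists), a library was marked where its gap to the nearest other, divided by the range of the group, passed Dixon's 5% limit for 4 values. Chance marks about 1 in 20 groups, and 11 were marked.

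Hepatoblasts replicate 1 was the high library in 6 of them. Its gap was 0.888 of the range for Mtf1, 0.939 for Slc30a10, 0.84 for Slc39a8 and 0.862 for Slc39a10. For the summed lists it was 0.909 for erythroid genes and 0.934 for macrophage genes.

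Mature hepatocytes replicate 2 was apart in 4. It was low for Slc39a8 (0.86), Slc30a6 (0.847) and the copper handling sum (0.94), and high for Slc39a11 (0.853). Diff. hepatocytes replicate 2 was low for Slc39a11 (0.838).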

How the results depend on the processing

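Of 690 other values of the members' log2 fold changes, 638 kept direction and side of the threshold, 31 lost a call, 5 gained a call and 16 changed sign. All 16 belong to values that were not called. Under library totals these were Mtf1 (-0.12, -0.15 and 0.037 in the 3 comparisons), Slc30a10 in Diff. hepatocytes against hepatoblasts (-0.35), and Slc39a4 in mature hepatocytes against hepatoblasts (-0.059) and Diff. against mature hepatocytes (0.27). Under totals without the 50 most abundant genes they were Mtf1 (0.069) and Slc39a4 (0.31) in Diff. against mature hepatocytes and Slc30a10 in Diff. hepatocytes against hepatoblasts (-0.12). That Slc30a10 value was -0.00032 without a filter beyond 1 count, -0.0077 in the fit of 8 libraries and between -0.20 and 0.83 over the fits without 1 library, negative without Hepatoblasts replicates 2 (-0.16), 3 (-0.18) and 4 (-0.20) and Diff. hepatocytes replicate 2 (-0.083). Slc39a8 in mature hepatocytes against hepatoblasts ranged from -0.35 to 0.14 over those fits. The cause was not tested.

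With the threshold inside DESeq2's test, 1 member instead of 7 was called in Diff. against mature hepatocytes, beside 3528 instead of 6362 of all 17779 genes. The other zinc genes, called 4, 2 and 3 times, came to 1 and 1 in the comparisons with hepatoblasts under that test (2504 and 4923 of all genes) and to 2 and 1 with glmTreat (2966 and 5750). Library totals gave 5 in mature hepatocytes against hepatoblasts (9927 of all genes) and 5 in Diff. against mature hepatocytes (7276), and totals without the 50 genes 5 in the latter (7421). With an adjusted p under 0.05 and no fold threshold they were 8, 7 and 13, beside 10615, 12870 and 11580 of all genes. The cause was not tested, beyond thresholds that are stricter or looser by construction. Without each library in turn, members called were 5 to 5, 6 to 7 and 6 to 7, and other genes 4 to 4, 2 to 3 and 2 to 4. Of all genes, 4704 to 5170, 7621 to 7967 and 6027 to 6532 were called in those fits.

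Whether replicate numbers pair the libraries is not known. Same-numbered libraries of hepatoblasts and Diff. hepatocytes had correlations of 0.324, -0.0589, 0.246 and 0.184 in their deviations from group means. Hepatoblasts replicates 1 and 3 were closest to the Diff. library of their own number, and replicates 2 and 4 to number 3. Such correlations cannot decide whether the libraries are paired. With the replicate number as a block, 5, 7 and 7 members and 4, 2 and 3 other genes were called, beside 5220, 7988 and 6359 of all genes. Within replicate numbers, the differences in the log2 ratio of Mt1 to Mt2 of 0.60, 2.04 and -1.44 had p = 0.125 in an exact sign-flip permutation test, the smallest p that 4 pairs allow. Without 1 library they ranged from 0.54 to 0.71, 1.83 to 2.28 and -1.68 to -1.24. The adjusted p of the exact permutation test between groups reached 0.0571 without any 1 hepatoblast library in the first and without any 1 Diff. library in the last. Leaving out a library of either group allows fewer assignments, and why the p differed by library was not tested. Depth limits Mt2 in mature hepatocytes, with 16 to 158 counts.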
